A study of Homo sapiens with 8 samples.

Results

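HMOX1, the heme oxygenase that cells switch on under oxidative stress, was described here together with the NRF2 antioxidant genes it is usually grouped with. A list of 10 genes was taken as the set: the enzymes HMOX1, NQO1, GCLM, GCLC, TXNRD1 and SRXN1, the cystine carrier SLC7A11, and the regulators NFE2L2, KEAP1 and BACH1. The platform's gene table named 5 of the 10, HMOX1, TXNRD1, SRXN1, NFE2L2 and KEAP1, among 14884 genes in all, and each of the 5 had 1 probe set. NQO1, GCLM, GCLC, SLC7A11 and BACH1 were not analysed here. HMOX1 was singled out because its level in A673 under the RING1B hairpin was already known from these data. Its values that rest on the A673 arrays are therefore given as a description, with no test.

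Expression was measured on microarrays in A673 and SK-ES1, both established human Ewing sarcoma cell lines, a tumour of bone and soft tissue in which EWSR1 is fused to an ETS transcription factor. The groups were A673 with a short hairpin RNA against RING1B (shRING1B), A673 with a control hairpin against GFP (shGFP), SK-ES1 with shRING1B and SK-ES1 with shGFP, with 2 arrays in each. RING1B is a ubiquitin ligase of Polycomb repressive complex 1, and the series title ties it to EWSR1-FLI1 and chromatin in this tumour. All 4 groups carry a hairpin, and nothing in the labels says whether the hairpin cells were single clones or whether the 2 arrays of a group came from separate cultures, so the spread between arrays may be technical. RNF2, which encodes RING1B, was not analysed here, and the knockdown was therefore not checked.

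NRF2, the protein of NFE2L2, is a transcription factor that KEAP1 holds in the cytoplasm and passes to the proteasome. Oxidants and electrophiles modify KEAP1, NRF2 then builds up, pairs with a small MAF protein and binds antioxidant response elements near its targets. BACH1 competes for the same elements and is itself inactivated by heme, which makes HMOX1 answer to heme, metals and several other stresses besides NRF2. Because NRF2 is controlled mainly through the stability of its protein, its activity is usually read from its targets rather than from its own mRNA.

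The core of the antioxidant response element, TGACNNNGC or GCNNNGTCA read from the other strand, was looked for around the start sites of the measured members, since it is the letters by which NRF2 recognises its targets. RefSeq promoter windows on GRCh38.p14, from 250 bases before to 50 bases after a start site, were held for 4 of the 5, with 7 windows in all. None was held for HMOX1, so its promoter was not searched. The core was found in 3 of the 7, both windows of TXNRD1 and 1 of 2 of KEAP1, against 13.3% of all 35116 windows. By gene, 16.1% of 27305 genes had a match in any of their windows. A match is only a match of letters, and its absence from the windows of NFE2L2 and SRXN1 says no more than that these letters are not there. The stretches below are written 5′ to 3′ on the strand of the gene, with the core in capitals. The first begins its core 99 bases before a TXNRD1 start site, the second 8 bases before the same start, and the third 102 bases before the other TXNRD1 start. The KEAP1 cores begin 54 and 31 bases before the start, so their stretches overlap.
TXNRD1 (plus strand, chr12:104215660-104215708): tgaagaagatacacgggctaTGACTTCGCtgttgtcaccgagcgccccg
TXNRD1 (plus strand, chr12:104215751-104215799): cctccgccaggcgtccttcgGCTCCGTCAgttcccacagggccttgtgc
TXNRD1 (plus strand, chr12:104286910-104286958): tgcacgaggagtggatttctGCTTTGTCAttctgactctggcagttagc
KEAP1 (minus strand, chr19:10502797-10502845): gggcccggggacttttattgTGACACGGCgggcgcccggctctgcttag
KEAP1 (minus strand, chr19:10502774-10502822): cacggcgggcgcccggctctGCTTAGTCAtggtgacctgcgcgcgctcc

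All values below are log2 expression, where a difference of 1 is a 2-fold change, and levels of different genes are not set against each other. Array medians over all probe sets, unnamed ones included (below, the array median), lay between 4.01 and 4.1. Each of the 5 members lay above that median on 8 of 8 arrays. Medians over the named genes alone were higher, between 5.21 and 5.34. HMOX1 lay below its array's named-gene median on both A673 shGFP arrays (4.93 and 5.06) and on SK-ES1 shGFP replicate 2 (5.14). The other members lay above it on every array. Of the 12 genes listed as Ewing sarcoma markers 7 were measured, and all 7 lay above the array median on every array, with a mean level of 8.98 and 8.92 in A673 shRING1B, 8.79 in both A673 shGFP arrays, 8.53 and 8.48 in SK-ES1 shRING1B, and 8.53 and 8.57 in SK-ES1 shGFP. CD99, the surface antigen used to diagnose the tumour, averaged 12.26 ± 0.00138 in A673 shRING1B, 12.16 ± 0.0703 in A673 shGFP, 11.44 ± 0.133 in SK-ES1 shRING1B and 11.36 ± 0.155 in SK-ES1 shGFP (SD, n = 2 each). Values written with ± are the mean and standard deviation over the 2 arrays of a group throughout.

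The regulators differed little between hairpins. NFE2L2, which encodes NRF2, stood at 7.01 and 7.25 in A673 shRING1B, against 7.03 and 7.22 in A673 shGFP. The SK-ES1 arrays read 7.37 and 7.24 under shRING1B, against 7.32 and 7.31 under shGFP. In each line the shRING1B arrays lay on both sides of the shGFP arrays. The log2 change, shRING1B minus shGFP, was 0.0041 with a standard error (SE) of 0.129 in A673 (limma adjusted p = 0.992) and -0.0081 in SK-ES1 (limma adjusted p = 0.998). The 95% intervals of these changes ran between -0.28 and 0.29 in A673 and between -0.30 and 0.28 in SK-ES1, so a shift of NFE2L2 mRNA up to about that size was not detectable with 2 arrays a group.

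KEAP1, the adaptor that brings NRF2 to a ubiquitin ligase, stood at 8.07 and 8.02 in A673 shRING1B, against 8.05 and 7.84 in A673 shGFP. The SK-ES1 arrays read 7.97 and 8.06 under shRING1B, against 8.14 and 7.95 under shGFP. The groups overlapped in both lines. Its A673 change was 0.10 (95% interval -0.18 to 0.38, limma adjusted p = 0.719). Its SK-ES1 change was -0.03 (95% interval -0.31 to 0.25, limma adjusted p = 0.979). The sign of the A673 value turned without A673 shGFP replicate 2, and that of the SK-ES1 value without replicate 1 of either SK-ES1 group. None of these values passed the test.

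HMOX1, which splits heme into biliverdin, iron and carbon monoxide, was the member picked for its A673 values. It stood at 5.61 and 6.36 in A673 shRING1B, against 4.93 and 5.06 in A673 shGFP. In SK-ES1, HMOX1 read 5.34 and 5.21 under shRING1B, against 5.51 and 5.14 under shGFP. Both A673 shRING1B arrays lay above the other 6 arrays, replicate 2 by far the more, and the SK-ES1 groups overlapped.

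The group means of HMOX1 were 5.98 ± 0.529 in A673 shRING1B, 4.99 ± 0.0914 in A673 shGFP, 5.27 ± 0.0877 in SK-ES1 shRING1B and 5.33 ± 0.262 in SK-ES1 shGFP. From high to low the order was A673 shRING1B, SK-ES1 shGFP, SK-ES1 shRING1B and A673 shGFP, and the 2 SK-ES1 groups, which are neighbours in it, did not differ beyond their spread. The A673 change was 0.99 with an SE of 0.218, a fold of 1.99 that is a description of arrays for which the gene was picked. It was 1.36 when replicate 1 of A673 shRING1B was left out and 0.61 when replicate 2 was. The share of all 14884 genes called higher in A673 was 0.705%, from which nothing is read about HMOX1.

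In SK-ES1, where the hairpin effect on HMOX1 had not chosen it, the change was -0.05 (95% interval -0.54 to 0.43, limma adjusted p = 0.98). The difference of the effects, A673 minus SK-ES1, was 1.04 (SE 0.308), and 1.42 or 0.67 with replicate 1 or replicate 2 of A673 shRING1B left out. It was not tested because it rests on the arrays that chose the gene. Between lines, A673 minus SK-ES1, HMOX1 stood at 0.71 under shRING1B (1.08 or 0.33 with replicate 1 or replicate 2 of A673 shRING1B left out) and at -0.34 under shGFP, again with no test.

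**Figure D1:**
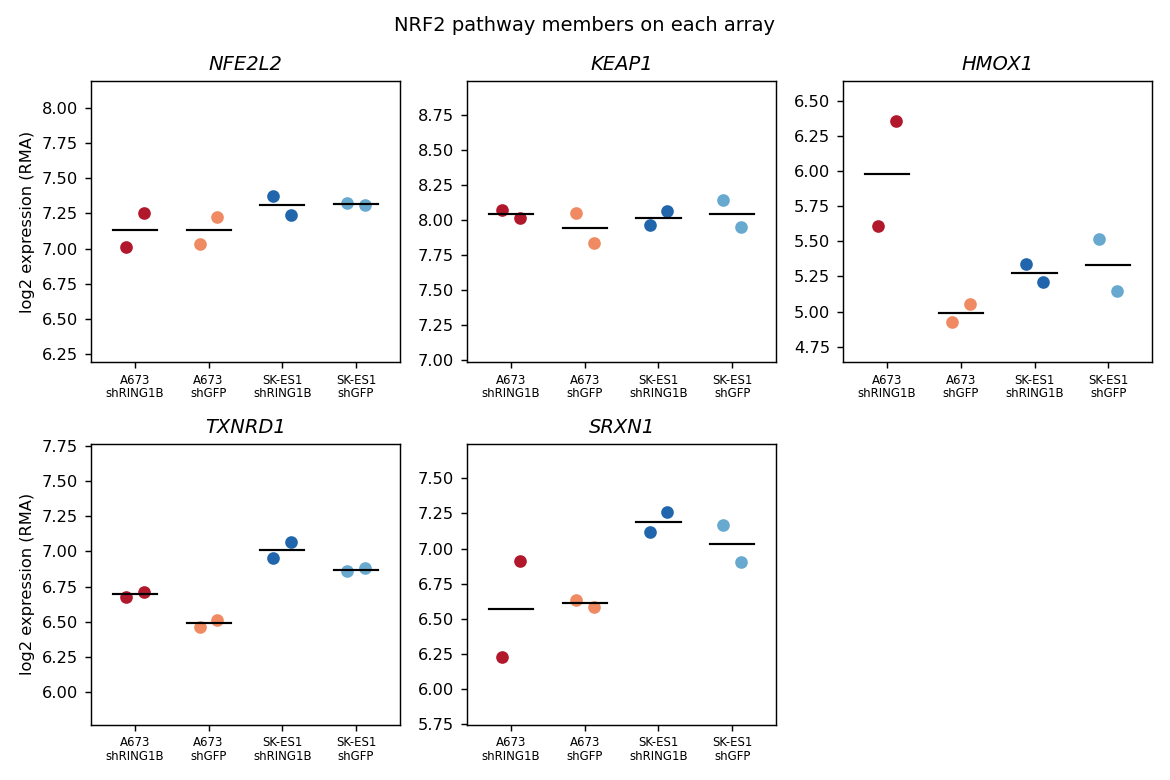
Log2 expression (RMA, vertical axes with their own range in each panel) of the 5 measured members on each of the 8 arrays; points are arrays, horizontal bars the mean of 2 arrays. HMOX1 stands at 5.61 and 6.36 in A673 shRING1B and between 4.93 and 5.51 on the other 6 arrays, while the points of NFE2L2 and KEAP1 lie close together in every group.

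TXNRD1 encodes cytosolic thioredoxin reductase, which keeps thioredoxin reduced with NADPH and is a standard NRF2 target. It stood at 6.68 and 6.71 in A673 shRING1B, against 6.46 and 6.51 in A673 shGFP. In SK-ES1 it stood at 6.95 and 7.07 under shRING1B, against 6.86 and 6.88 under shGFP. In each line both shRING1B arrays lay above both shGFP arrays, a position that 26% of all genes had in A673 and 17.8% in SK-ES1.

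The change of TXNRD1 was 0.21 (SE 0.109, 95% interval -0.04 to 0.45) in A673 and 0.14 (95% interval -0.10 to 0.38) in SK-ES1. Neither passed the test (limma adjusted p = 0.345 and 0.855). Over every alternative setting tried the A673 value stayed between 0.18 and 0.23 and the SK-ES1 value between 0.08 and 0.20, so both kept their sign without passing. The difference of the effects between lines, A673 minus SK-ES1, was 0.07 (limma adjusted p = 0.897).

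SRXN1 encodes sulfiredoxin, which restores overoxidised peroxiredoxins and is likewise an NRF2 target. It stood at 6.23 and 6.91 in A673 shRING1B, against 6.64 and 6.59 in A673 shGFP. The SK-ES1 arrays read 7.12 and 7.26 under shRING1B, against 7.17 and 6.90 under shGFP. The A673 shRING1B arrays lay on both sides of the shGFP arrays, replicate 1 below them and replicate 2 above, and that replicate 2 is also the array on which HMOX1 was highest.

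The change of SRXN1 was -0.04 (SE 0.197, 95% interval -0.48 to 0.40) in A673 and 0.15 (95% interval -0.29 to 0.59) in SK-ES1, with limma adjusted p = 0.935 and 0.926. A single array set its sign in A673, where the value was 0.30 without A673 shRING1B replicate 1. Of the 5 members, HMOX1, SRXN1, NFE2L2 and, by little, TXNRD1 were higher on replicate 2 of A673 shRING1B than on replicate 1, and KEAP1 was slightly lower.

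Apart from HMOX1, 0 of the 4 measured members was called by limma at an adjusted p under 0.05 in A673, where 3.74% of all genes were called, and 0 of 4 in SK-ES1, where 0.0672% were. At an unadjusted p under 0.05 the count was also 0 in both lines, beside 18.9% of all genes in A673 and 7.36% in SK-ES1. The median change of the 4 was 0.05 in A673 and 0.07 in SK-ES1, beside medians over all genes of 0.01 and -0.0039. For the difference of the effects between lines 0 of 4 was called, with 0 at an unadjusted p under 0.05, beside 0.786% and 13.7% of all genes.

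**Figure D2:**
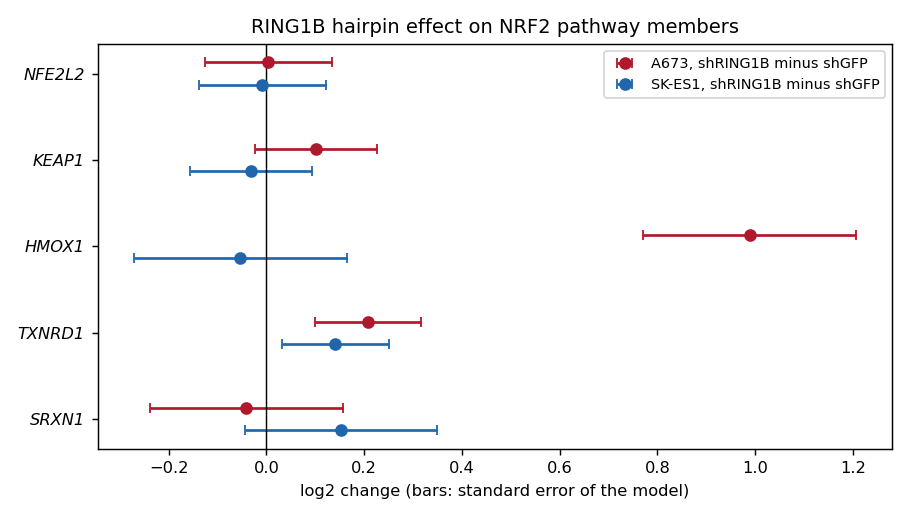
Log2 change, shRING1B minus shGFP, of the 5 measured members in A673 and in SK-ES1; points are the model's estimate from 2 arrays a group and bars its standard error. HMOX1 in A673, at 0.99, stands apart, and the other 9 points lie between -0.05 and 0.21.

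Between the lines, the reductase and the peroxiredoxin repair enzyme lay lower in A673. Under shGFP, TXNRD1 averaged 6.49 ± 0.0346 in A673 and 6.87 ± 0.0132 in SK-ES1, a difference of -0.38 (A673 minus SK-ES1, SE 0.109, limma adjusted p = 0.0229). TXNRD1 was the 1 called member of the 4, beside 30.7% of all genes called and 13.7% called lower. Under shRING1B it averaged 6.70 ± 0.0248 in A673 and 7.01 ± 0.082 in SK-ES1, a difference of -0.32 (limma adjusted p = 0.0502), called in 5 of 16 alternatives. The shGFP call was lost with any of the 4 shGFP arrays left out, with an adjusted p between 0.0788 and 0.114, while the difference stayed between -0.41 and -0.36.

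SRXN1 averaged 6.57 ± 0.481 in A673 shRING1B and 7.19 ± 0.104 in SK-ES1 shRING1B, a difference of -0.62 that limma called (adjusted p = 0.0368), beside 31.4% of all genes called and 13.8% called lower. The call was lost in 7 of 16 alternatives. The value was -0.28 (adjusted p = 0.234) with replicate 1 of A673 shRING1B left out, -0.69 (0.0869) with replicate 1 of SK-ES1 shRING1B and -0.54 (0.173) with its replicate 2 left out, and it stayed at -0.62 (0.0522) without either A673 shGFP array. Under shGFP SRXN1 averaged 6.61 ± 0.0351 in A673 and 7.04 ± 0.187 in SK-ES1, a difference of -0.42 (adjusted p = 0.139), which was called without either A673 shRING1B array (0.0327). NFE2L2 and KEAP1 differed between lines by -0.19 and -0.10 under shGFP (adjusted p = 0.325 and 0.597) and by -0.17 and 0.03 under shRING1B (0.354 and 0.884), as A673 minus SK-ES1.

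The wider pathway was followed through 8 lists of antioxidant and stress genes, of which 102 of 153 genes were measured. In A673, limma called 1 higher and 7 lower, 7.84% of the 102 beside 3.74% of all genes (0.705% higher, 3.04% lower), and the median change of the 102 was 0.00064, beside 0.01 over all genes. In SK-ES1 it called 0 of 102, with 3 at an unadjusted p under 0.05, beside 7.36% of all genes. Leaving out an array took the A673 count of 8 to 2 for replicate 2 of A673 shGFP, 4 for replicate 1 of A673 shRING1B and 5 for its replicate 2. It was 4 when only the A673 arrays were fitted. For the difference of the effects between lines 0 of 102 was called, with 19 at an unadjusted p under 0.05, beside 13.7% of all genes. In some alternatives limma called this difference for SESN3 (3 of 15, adjusted p between 0.0142 and 0.214), GGCT (1 of 15, between 0.0451 and 0.373) and MGST1 (1 of 15, between 0.0326 and 0.341), each with the lower value in A673. The call of SESN3 without A673 shGFP replicate 1 came with a difference of -1.88 (adjusted p = 0.0439).

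**Figure D3:**
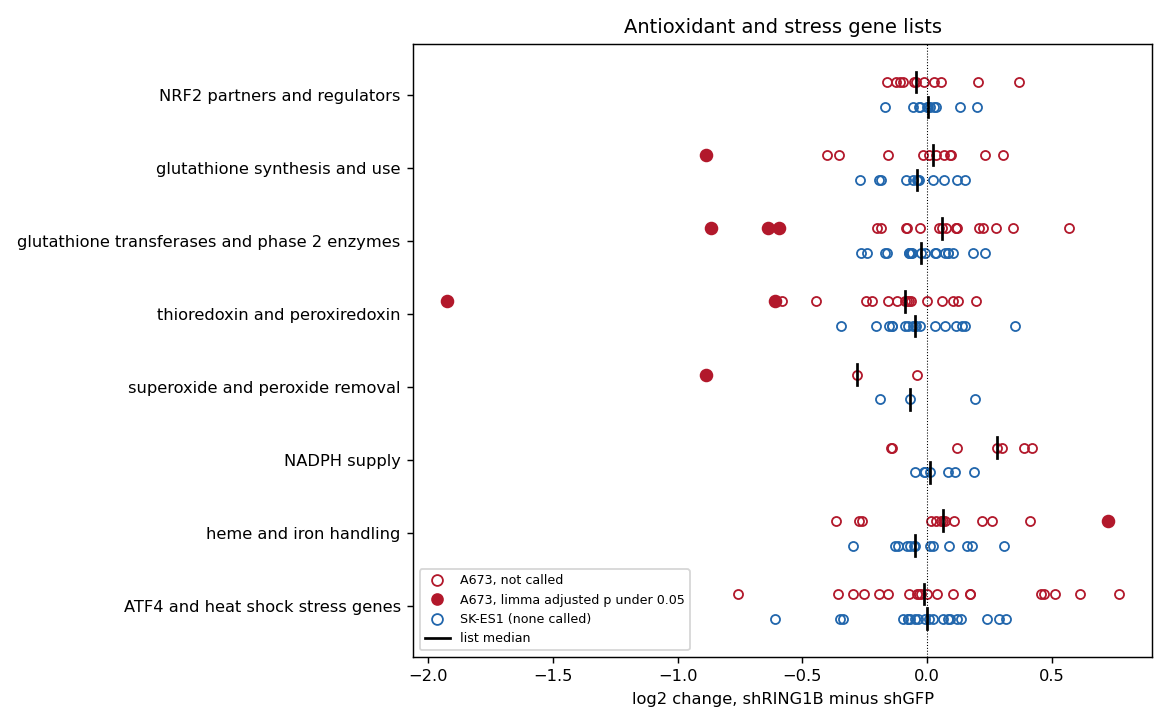
Log2 change, shRING1B minus shGFP, of each measured gene of the 8 lists, in A673 (upper row of each list) and in SK-ES1 (lower row); filled points passed limma's adjusted p of 0.05 and short black lines mark list medians. The 8 filled points are all in A673, 7 to the left of 0 and 1, BLVRB, to the right.

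Heme and iron genes lie next to HMOX1 in function. Of 13 measured 1 rose and 0 fell in A673, beside 0.705% and 3.04% of all genes, with a median of 0.06. BLVRB, a biliverdin reductase that acts on the product of heme oxygenase, stood at 7.45 and 7.71 in A673 shRING1B, against 6.80 and 6.90 in A673 shGFP. In SK-ES1, BLVRB read 7.41 and 7.87 under shRING1B, against 7.79 and 7.59 under shGFP. Both A673 shRING1B arrays lay above both A673 shGFP arrays, a position that 26% of all genes had in A673. They lay near the level of SK-ES1, where the groups overlapped.

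BLVRB rose by 0.73 in A673 (SE 0.165, limma adjusted p = 0.0427) and its change in SK-ES1 was -0.05 (adjusted p = 0.976). That call did not survive leaving out any 1 of the A673 arrays or of the SK-ES1 shGFP arrays, or fitting the A673 arrays only. Over the alternatives the value stayed between 0.60 and 0.85, and the adjusted p reached 0.206. Under shGFP BLVRB was lower in A673 than in SK-ES1 by a difference of -0.84 (limma adjusted p = 0.00331), beside 13.7% of all genes called lower. BLVRA, the other biliverdin reductase, had a change of -0.37 in A673 (adjusted p = 0.136) and 0.16 in SK-ES1 (0.849). CPOX, a heme synthesis enzyme, was at 0.41 in A673 (adjusted p = 0.0736), and HMOX2, the constitutive heme oxygenase, was at -0.30 in SK-ES1 (0.783).

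Of 12 measured glutathione synthesis and use genes, 0 rose and 1 fell in A673, beside 0.705% and 3.04% of all genes. The median was 0.02. GGCT, which breaks down gamma-glutamyl dipeptides in glutathione turnover, stood at 6.80 and 6.61 in A673 shRING1B, against 7.57 and 7.61 in A673 shGFP. In SK-ES1 it stood at 6.88 and 6.83 under shRING1B, against 7.16 and 7.08 under shGFP. The group mean of GGCT was lower under shRING1B in both lines, with no call in SK-ES1.

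GGCT fell by 0.89 in A673 (limma adjusted p = 0.00295), a call kept in 16 of 16 alternatives, and was at -0.27 in SK-ES1 (adjusted p = 0.663). It lies on chromosome 7 between NUP42 and MPLKIP, a stretch with 60 measured protein-coding genes. Of these 50 had A673 values below 0 and 18 fell, where 52.2% of all genes lay above 0 and 3.04% were called lower. The A673 median of the stretch was -0.37 and the SK-ES1 median 0.0022, beside 0.01 and -0.0039 over all genes. The stretch holds GGCT itself and was set with earlier results of these data known, so these counts are only a description. The part of the stretch in the GGCT value was not tested. GPX3 and GPX8, glutathione peroxidase family genes, were at -0.40 and -0.35 in A673 (adjusted p = 0.195 and 0.242), and OPLAH, the 5-oxoprolinase of glutathione turnover, was at 0.30 (0.223).

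Among 19 measured glutathione transferases and phase 2 enzymes 0 rose and 3 fell in A673, beside 0.705% and 3.04% of all genes. The median was 0.06. MGST1, a microsomal glutathione transferase that also reduces lipid peroxides, stood at 5.07 and 5.10 in A673 shRING1B, against 5.81 and 6.10 in A673 shGFP. In SK-ES1, MGST1 read 6.68 and 6.96 under shRING1B, against 6.74 and 6.91 under shGFP. Its group mean was lower under shRING1B in A673, and the SK-ES1 groups overlapped.

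MGST1 fell by 0.87 in A673 (SE 0.144, limma adjusted p = 0.0114), a call lost when replicate 2 of A673 shGFP (0.136) or replicate 1 of A673 shRING1B (0.0571) was left out. GSTA4, which conjugates the lipid peroxidation product hydroxynonenal, fell by 0.59 (adjusted p = 0.0183), and MGST2, a related microsomal enzyme, fell by 0.64 (0.0464). The GSTA4 call was lost in 5 of 16 alternatives and the MGST2 call in 10 of 16. Both were lost with any 1 A673 array left out, and MGST2 also lost its call without either SK-ES1 shRING1B array. GSTM4, of a family of near-identical copies whose single values are uncertain, was at 0.57 in A673 (0.0708) and -0.27 in SK-ES1 (0.774).

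In the thioredoxin and peroxiredoxin list, 0 of 17 measured genes rose and 2 fell in A673, beside 0.705% and 3.04% of all genes. The median was -0.09. SESN3, a sestrin that responds to stress and FOXO factors, stood at 5.51 and 5.86 in A673 shRING1B, against 7.31 and 7.90 in A673 shGFP. In SK-ES1, SESN3 read 3.47 and 2.88 under shRING1B, against 3.51 and 3.53 under shGFP, below the array medians. SESN3 fell by 1.93 in A673 (SE 0.228, limma adjusted p = 0.00174), the largest change of the 102 listed genes in that line, and kept its call in 16 of 16 alternatives.

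MSRB2, a mitochondrial methionine sulfoxide reductase, fell by 0.61 in A673 (limma adjusted p = 0.019). That call was lost in 4 of 16 alternatives, among them those without replicate 1 of A673 shRING1B or either array of A673 shGFP. TXNIP, an inhibitor of thioredoxin, was at -0.58 and SESN2 at -0.45 in A673 (adjusted p = 0.279 and 0.276). In SK-ES1 the smallest p of the list was that of MSRB3, at 0.35 (adjusted p = 0.533).

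Catalase, encoded by CAT, breaks down hydrogen peroxide and was 1 of 3 measured genes of superoxide and peroxide removal. It stood at 4.98 and 4.73 in A673 shRING1B, against 5.63 and 5.84 in A673 shGFP. In SK-ES1 it stood at 7.51 and 7.65 under shRING1B, against 7.84 and 7.70 under shGFP. The group mean of CAT was lower under shRING1B in both lines, with no call in SK-ES1. Of the 3 measured genes 0 rose and 1 fell in A673, beside 0.705% and 3.04% of all genes.

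CAT fell by 0.88 in A673 (SE 0.135, limma adjusted p = 0.00754), a call lost without A673 shGFP replicate 2 (0.105), and was at -0.19 in SK-ES1 (0.842). Under shGFP it was lower in A673 than in SK-ES1 by a difference of -2.03 (limma adjusted p = 2.09e-06), beside 13.7% of all genes called lower. CCS, the copper chaperone of superoxide dismutase, was at -0.28 in A673 (adjusted p = 0.228), and the median of the 3 was -0.28.

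**Figure D4:**
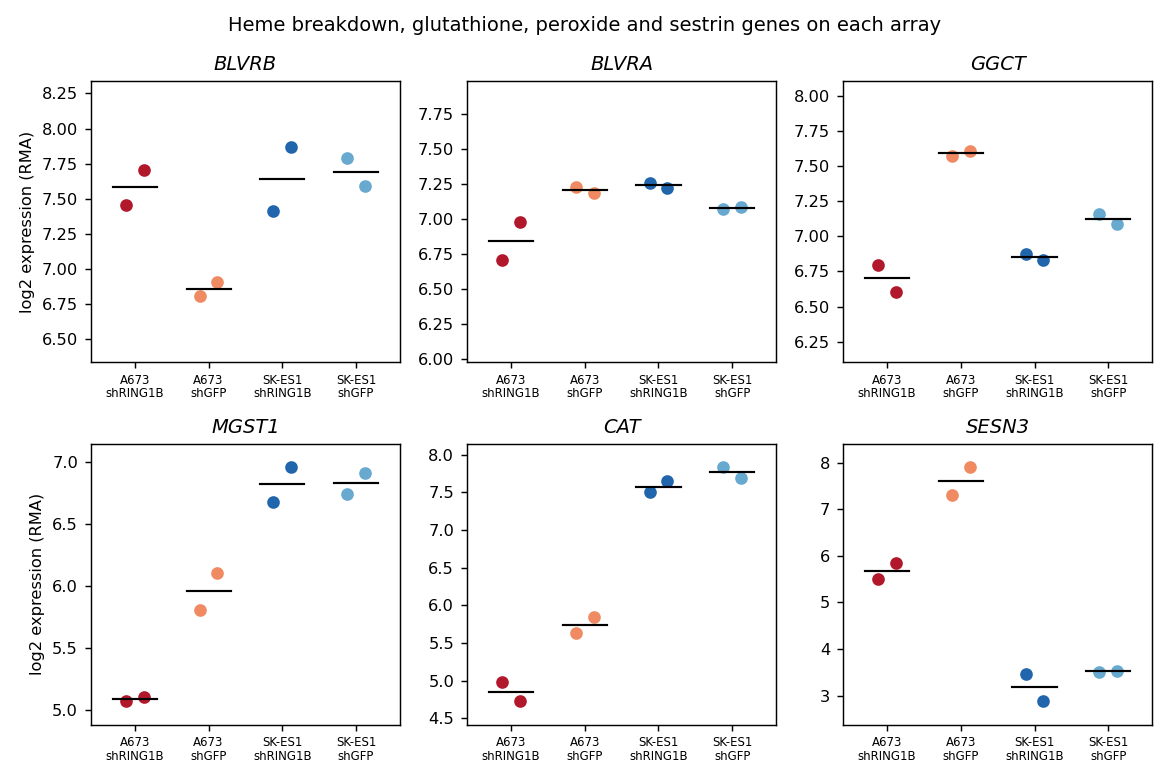
Log2 expression (RMA, vertical axes with their own range in each panel) of 6 genes of the wider lists on each of the 8 arrays; points are arrays, horizontal bars the mean of 2 arrays. In A673, the mean of BLVRB is higher under shRING1B, and the means of GGCT, MGST1, CAT and SESN3 are lower.

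The remaining lists held no called gene in either line by limma. NADPH supply had the highest median in A673, 0.28 over 7 measured genes with 5 above 0 and 4 at an unadjusted p under 0.05, beside 52.2% and 18.9% of all genes. NNT, the mitochondrial transhydrogenase, was at 0.42 (adjusted p = 0.0997), RPIA and TALDO1 of the pentose phosphate pathway were at 0.39 and 0.30 (0.158 and 0.188), and the SK-ES1 median was 0.01. The 11 measured NRF2 partners and regulators had a median of -0.04 in A673 and 0.0048 in SK-ES1, with 0 at an unadjusted p under 0.05 in either line. MAFF and MAFG, small MAF partners of NRF2, were at 0.37 and 0.20 in A673 (adjusted p = 0.271 and 0.35).

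The ATF4 and heat shock list, which also holds metallothionein genes, covers other stresses to which HMOX1 is known to answer. Its 20 measured genes had a median of -0.01 in A673 and 0.00092 in SK-ES1. In A673, 4 of the 20 passed an unadjusted p under 0.05, a share near the 18.9% of all genes. The heat shock genes HSPA1A and HSPA1B, near-identical copies whose single values are uncertain, were at 0.52 and 0.46 (limma adjusted p = 0.0997 and 0.138). DDIT4, a stress-induced inhibitor of growth signalling, was at -0.76 (0.085), and ATF4 itself was at -0.25 (0.257).

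Markers of other cell types were also read. Both A673 and SK-ES1 are established cell lines, so these levels are those of the cultured cells. Of 20 listed 13 were measured, with a mean level of 4.87 and 4.86 in A673 shRING1B, 4.74 and 4.64 in A673 shGFP, 4.84 and 4.91 in SK-ES1 shRING1B, and 4.94 and 4.82 in SK-ES1 shGFP. Between 7 and 9 of the 13 lay above the array median. CD68 (mean 7.31), KRT18 (7.84), EPCAM, KRT8, DES, MYOD1 and MYOG did so on 8 of 8 arrays. PECAM1, VWF, DCN and LUM did so on between 1 and 4 arrays, and CD14 of monocytes and macrophages and ALB of liver on 0 of 8. In A673 KRT18, an epithelial keratin, was the 1 called marker of the 13, at 0.59 (limma adjusted p = 0.0487), beside 3.74% of all genes called. DES, the desmin gene of muscle, was at 0.80 in A673 (adjusted p = 0.0712). Of the macrophage markers, CD68, which also marks lysosomes, was at 0.45 in A673 (adjusted p = 0.182), and CD14, below the median of every array, was at 0.21 (0.545). How these genes relate to the HMOX1 value was not tested.

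The 5 protein-coding genes whose pattern was most like that of HMOX1 were chosen by Pearson's r over the 8 arrays, among 2272 genes that spanned at least 1 log2 unit. They were LY96 (r = 0.865), a co-receptor of Toll-like receptor 4, MCEMP1 (0.823), CAVIN1 (0.797), a coat protein of caveolae, ACKR5 (0.767) and the receptor kinase LTK (0.758). LY96 and ACKR5 were dim, near or below the array medians of 4.01 to 4.1 on all arrays but A673 shRING1B replicate 2. On those arrays LY96 read between 3.33 and 4.07, and ACKR5 between 3.48 and 4.11. The points share arrays and 2 cell lines, so r is a description of how the arrays line up. Like HMOX1, all 5 were highest on A673 shRING1B replicate 2. For MCEMP1 this was by little, 6.72 beside 6.71 on SK-ES1 shGFP replicate 1. The A673 change ranged from 0.53 for LTK to 0.83 for MCEMP1, while the SK-ES1 change ranged from -0.36 for MCEMP1 to 0.15 for LTK. The shared peak and the A673 rise follow largely from choosing genes by likeness to HMOX1, so nothing more is read from them.

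**Figure D5:**
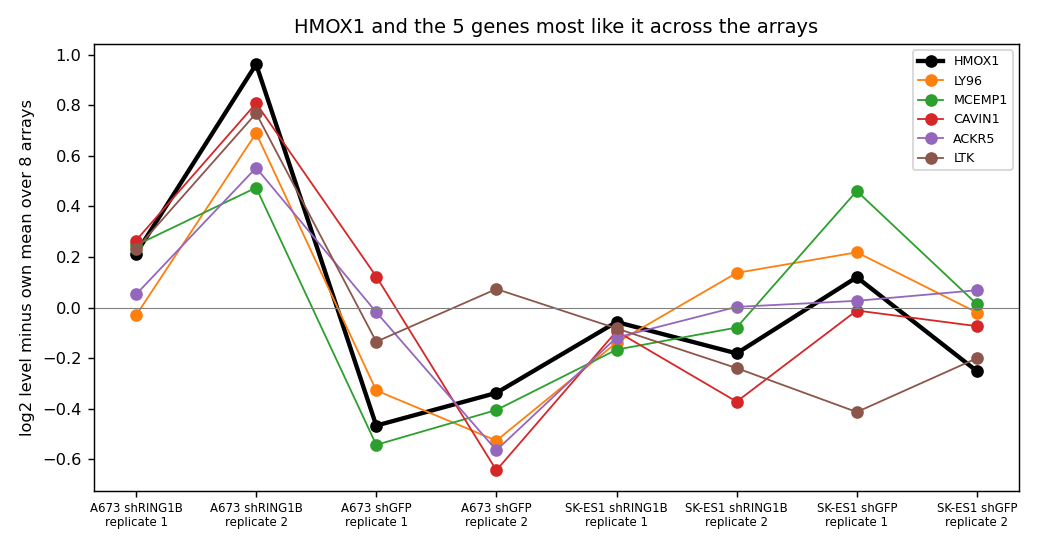
Log2 level of HMOX1 (black) and of LY96, MCEMP1, CAVIN1, ACKR5 and LTK, each minus its own mean over the 8 arrays, with the arrays along the horizontal axis; lines only join the points of a gene. All 6 genes peak on A673 shRING1B replicate 2, MCEMP1 by little, which follows largely from choosing the genes by likeness to HMOX1.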

How the data were processed

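The deposited values are log2 expression per probe set, 48144 probe sets on each of 8 arrays, and the submitters' processing notes name RMA and limma, without versions. RMA's quantile step hides a change shared by most genes. Per the labels' protocols, 30 ng of total RNA was labelled per sample. The number of arrays limits the precision, and 0 columns were left unused. Probe sets were named by the platform's gene table (16098 with 1 symbol, 0 with several, 32046 unnamed here), symbols were updated by gene ID, and the probe set with the highest mean stood for a gene, which gave 14884 genes. A linear model of 4 group means was fitted to the 8 arrays (limma 3.58.1, R 4.3.3, statmod 1.5.0), with 4 residual and 6 prior degrees of freedom. P-values are two-sided and Benjamini-Hochberg adjusted over all genes, and a gene is called at an adjusted p under 0.05. The code was tested on simulated data. Groups came from the description labels, and replicate numbers only name arrays. Members, lists and the chromosome 7 stretch around GGCT were chosen with earlier results of these data known. Beside members, the rule names up to 4 genes of each list with the smallest p in each line, and the 5 genes most like HMOX1. The alternatives were 3 normalizations, another variance model, the compared groups alone, a filter on dim probe sets, 2 other rules for probe sets, and each array left out.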

Additional observations from a re-analysis of the deposited data

How the results depend on the processing

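No paired analysis was possible because the labels give no replicate numbers. Over all genes the count called in A673, 557, was 1052 with a trended, robust variance model and 213 with only the A673 arrays fitted, and between 101 and 434 with 1 array left out. The count of 10 in SK-ES1 was 16 with arrays centred on their median, 34 with the trended model and 21 with genes above the median of all probe sets, and between 2 and 7 with 1 array left out. The count of 117 for the difference between lines was 281 with the trended model and 179 above the median, and between 0 and 72 with 1 array left out, 0 coming without SK-ES1 shRING1B replicate 1. The 8 list genes called in A673 were 14 with the trended model and 4 with only the A673 arrays fitted, and between 2 and 7 with 1 array left out.

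Member and list values whose sign turned were uncalled in the model as reported. The largest of them was the line difference of SRXN1, at -0.19 (SE 0.279). With quantile normalization repeated, NFE2L2 in SK-ES1 was 0.028, its line difference -0.013 and MGST1 in SK-ES1 0.024, and with cyclic loess NFE2L2 in SK-ES1 was 0.0055. With 1 array left out, the A673 effect ranged from -0.12 to 0.13 for NFE2L2, from -0.38 to 0.30 for SRXN1 and from -0.0033 to 0.21 for KEAP1. The SK-ES1 effect ranged from -0.24 to 0.13 for HMOX1, -0.076 to 0.060 for NFE2L2, -0.13 to 0.062 for KEAP1, -0.28 to 0.18 for BLVRB, -0.15 to 0.13 for MGST1 and -0.098 to 0.0014 for MSRB2. The line difference ranged from -0.11 to 0.13 for NFE2L2 and from -0.53 to 0.15 for SRXN1, and KEAP1 between lines from -0.21 to 0.0020 under shGFP and from -0.018 to 0.079 under shRING1B. The causes were not tested.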
